A study of Mus musculus with 6 samples.

Results

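The table of mouse primary renal tubular epithelial cells listed 1849 antisense genes, genes annotated on the strand opposite to another gene, and 119 of them had a mean of at least 1 FPKM over the 6 libraries. FPKM is the number of sequenced fragments scaled to the exon length of a gene and to the size of the library. These 119 antisense transcripts, out of 30315 genes listed, were chosen by their annotated type and by that mean level; 0 had to be removed as Gas5, Meg3 or a gene named Snhg. The rule used the mean over all 6 libraries and not the difference between the groups. Still, 10 members had a mean of at least 1 FPKM in siSox9 alone and 5 in siNC alone.

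All cells came from the kidneys of C57BL/6 mice and were grown as primary cultures. They were transfected with siSox9, a small interfering RNA against the transcription factor Sox9, or with the control siNC, 12 h before hypoxia/reoxygenation (H/R). H/R, a culture model of ischemia-reperfusion injury, consisted of 6 h at 1.0% oxygen without glucose and 18 h of reoxygenation in complete medium. Total RNA was sequenced in 3 libraries of each group, and every library had been through H/R, so no uninjured cells were compared. One siRNA stood for the loss of Sox9. Nothing in the labels says that the replicates were separate cultures, so the p-values below measure the spread between these libraries, which may be technical.

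Antisense transcripts are made by RNA polymerase II from the DNA strand opposite to a gene. Some, such as Airn, repress the gene they cross, some share a bidirectional promoter with a neighbouring gene and rise and fall with it, and for many no function is known. Where a kit does not keep the strand, a read from the exons of one partner cannot be assigned to either strand by itself, and whether strand was kept or used here is not given in the sources used here. Reads of a gene, its unspliced RNA included, and of its antisense partner therefore cannot be told apart where both overlap.

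To show how they meet the gene on the other strand, 7 antisense transcripts that carry the differences described below are shown by a stretch of 120 bases. The sequences are those of GENCODE M21 (genome build GRCm38), written 5′ to 3′ on the transcript's own strand. Capitals mark bases that lie opposite an exon of another gene.
Slc13a2os (chr11:78403012-78403131, plus strand, opposite Slc13a2): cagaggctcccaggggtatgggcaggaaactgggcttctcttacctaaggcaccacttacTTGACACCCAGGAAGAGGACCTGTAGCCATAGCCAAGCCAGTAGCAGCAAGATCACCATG
AC154635.1 (chr13:42304957-42304991 joined to chr13:42302578-42302662, minus strand, opposite Edn1): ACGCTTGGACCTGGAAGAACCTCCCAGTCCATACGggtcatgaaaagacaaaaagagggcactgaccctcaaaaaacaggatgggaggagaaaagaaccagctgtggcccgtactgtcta
6330403L08Rik (chr5:138995644-138995763, plus strand, opposite Pdgfa): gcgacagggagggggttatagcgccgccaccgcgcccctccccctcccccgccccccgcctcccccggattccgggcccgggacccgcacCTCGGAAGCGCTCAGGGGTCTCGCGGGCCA
AC118202.1 (chr10:14544826-14544945, plus strand, opposite Adgrg6): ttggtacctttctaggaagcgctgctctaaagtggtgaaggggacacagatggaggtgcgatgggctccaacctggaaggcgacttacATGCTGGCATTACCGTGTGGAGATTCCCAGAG
Hoxb5os (chr11:96306791-96306910, minus strand, first 120 bases): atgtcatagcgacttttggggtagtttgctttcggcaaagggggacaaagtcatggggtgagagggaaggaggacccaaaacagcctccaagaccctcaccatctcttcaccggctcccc
Pmepa1os (chr2:173276698-173276813 joined to chr2:173277538-173277541, plus strand, first 120 bases): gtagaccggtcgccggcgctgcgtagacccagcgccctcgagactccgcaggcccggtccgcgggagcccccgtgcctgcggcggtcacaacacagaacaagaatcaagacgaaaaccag
Gm15199 (chr10:42758541-42758660, minus strand, first 120 bases): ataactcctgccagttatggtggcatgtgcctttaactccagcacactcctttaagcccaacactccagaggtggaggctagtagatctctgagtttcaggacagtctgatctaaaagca
In Slc13a2os, 6330403L08Rik and AC118202.1 the lower-case stretch ends in ac just before the capitals, which is GT, the usual start of an intron, when read on the strand of the opposite gene. The exon of these antisense transcripts thus runs without a break across the end of an exon of the other gene and into its intron. AC154635.1 begins with 35 bases opposite an Edn1 exon, all that its 400 bases share with it. The 3 stretches without capitals are the 5′ ends of transcripts that start outside the exons of any opposite gene.

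The siRNA lowered its target. Sox9 was at 8.93, 8.61 and 9.07 FPKM in the siSox9 libraries and at 25.7, 26.5 and 25.6 FPKM in the siNC libraries, so 34.2% of the siNC level was left (log2 fold change -1.45, SE 0.034, adjusted p = 7.03e-06; exact permutation p = 0.1, the smallest that 3 against 3 libraries allow, two-sided). Of the markers of tubular epithelium, 6 of 6 (Epcam, Cdh1, Cdh16, Pax8, Krt8 and Krt18) were at 1 FPKM or more, and their sum ranged from 3755 to 3913 FPKM in siSox9 and from 3592 to 3794 FPKM in siNC. Cdh16 rose from a mean of 100.9 to 129.7 FPKM (log2 fold change 0.36, adjusted p = 0.000307). Of the proximal tubule markers, 1 of 4 reached that level, and Slc5a2, Aqp1 and Slc34a1 were under it. Fibroblast markers reached it for 1 of 4 genes, endothelial markers for 1 of 3, leukocyte markers for 2 of 3 and podocyte markers for 0 of 2. The summed leukocyte markers ranged from 11.8 to 12.8 FPKM in siSox9 and from 12.2 to 12.8 FPKM in siNC, and the summed fibroblast markers from 5.79 to 7.17 FPKM and from 7.12 to 8.13 FPKM; their part in the results below was not tested. The library totals inferred from the scale of the FPKM values ran from 23893199 to 25725746 reads. Which reads these totals count is not given in the sources used here.

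The antisense transcripts were weakly expressed. Their mean level ran from 1.00 to 18.7 FPKM with a median of 1.71 FPKM, 70 of 119 were under 2 FPKM, and 4 were at 10 FPKM or more. They were also short, with a median of 773 exon bases (266 to 6498), so the median member rested on 36.2 reads in a library, against 794.8 reads for the median of all genes tested. Whole reads could be recovered for 112 members, and 69 of these had a mean under 50 reads and 21 under 20. The median coefficient of variation between replicates was 15.2% in siSox9 and 17.8% in siNC, against 4.42% and 4.93% over all genes tested. Together the 119 transcripts held 292.2 to 312.9 FPKM in siSox9 libraries and 287.7 to 302.2 FPKM in siNC libraries, ranges that overlapped. They made up 0.0937% to 0.109% of all FPKM in a library.

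Relative to siNC, 14 of the 119 antisense transcripts (11.8%) passed an adjusted p of 0.05, 5 of them higher and 9 lower with siSox9. Over all 12009 genes tested the share was 30.4%, with 12.8% higher and 17.6% lower. Slc13a2os, Gm26944, Pmepa1os, Gm38155 and Hoxb5os rose, and AC154635.1, Gm15199, AC123738.1, Gm15726, 6330403L08Rik, Gm29237, Gm42902, AC118202.1 and Emx2os fell. In bulk RNA, fewer cells of a type and less RNA per cell cannot be told apart. All 14 had groups that did not overlap, as had 25 of the 119 members (21.01%) and 46.3% of all genes tested. The median log2 fold change of the members was 0.04, against -0.01 over all genes tested, the range was -0.95 to 0.61, and 49 members changed by less than 0.1. The split of 5 higher and 9 lower depended on the scaling: it was 6 and 7 after rescaling to one FPKM sum or after centring each library on its median, 8 and 5 after quantile normalization, and 6 and 5 with limma voom on the reads recovered.

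**Figure D1:**
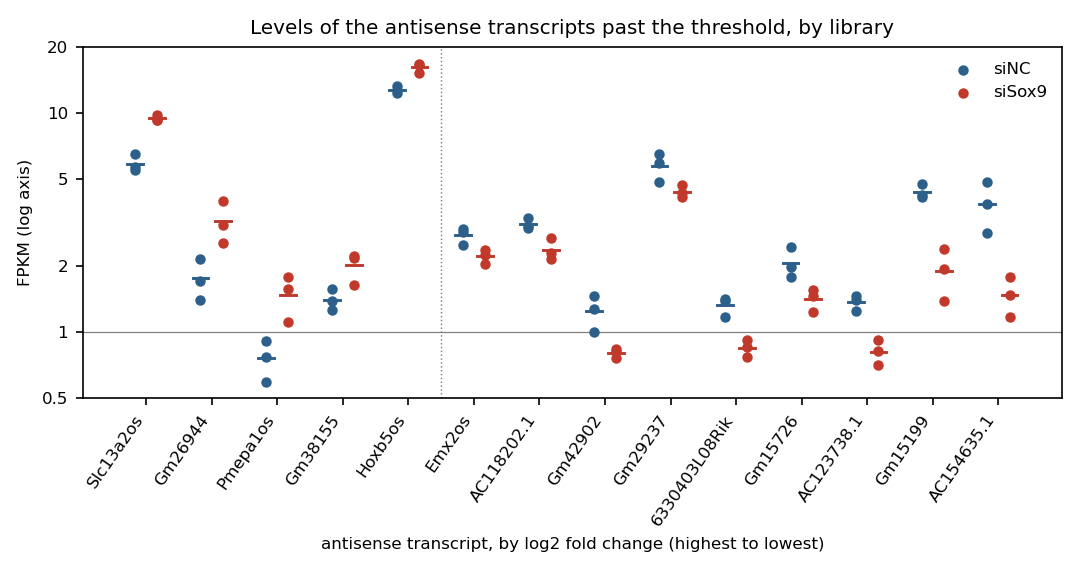
FPKM (log axis) of the 14 antisense transcripts past the threshold in each library, with siNC in blue and siSox9 in red; short bars are group means, the dotted line divides the 5 that rose from the 9 that fell, and the grey line marks 1 FPKM. In each of the 14 the 3 siSox9 points lie wholly above or wholly below the 3 siNC points, and 4 of them have 1 group mean under 1 FPKM.

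The share of antisense transcripts that passed was higher at higher levels and with more reads. By level, 6 of 70 members at 1 to 2 FPKM passed (8.57%, against 19.6% of all genes tested at that level), 5 of 37 at 2 to 5 FPKM (13.5% against 26.3%) and 3 of 12 at 5 FPKM or more (25% against 34.4%). By reads, 7 of 69 members with a mean under 50 reads passed (10.1%), against 77 of 746 genes tested in that class (10.3%). Of members with 50 to 200 reads 4 of 34 passed (11.8% against 22.4%), and of those with 200 reads or more 3 of 9 (33.3% against 33.1%). Among long intergenic noncoding RNAs with at least 1 FPKM, 38 of 157 passed (24.2%), 28 higher and 10 lower, with a median of 72.3 reads, and among protein-coding genes 3476 of 10783 (32.2%). Differences between these shares were not tested. A member that did not pass is not shown to be unchanged.

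**Figure D2:**
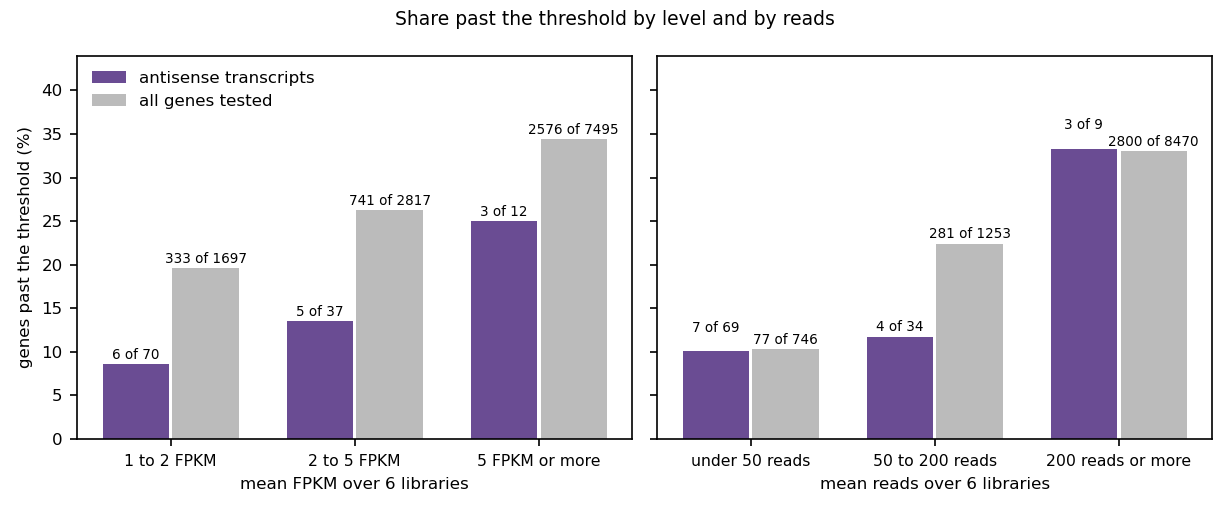
Share of genes past the threshold (%) among antisense transcripts (purple) and all genes tested (grey), in classes of mean FPKM (left) and mean reads (right) over the 6 libraries; the numbers over the bars are genes past the threshold of genes in the class. In each FPKM class the purple bar is the lower one, whereas in the classes under 50 reads and of 200 reads or more both bars are of nearly the same height.

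**Figure D3:**
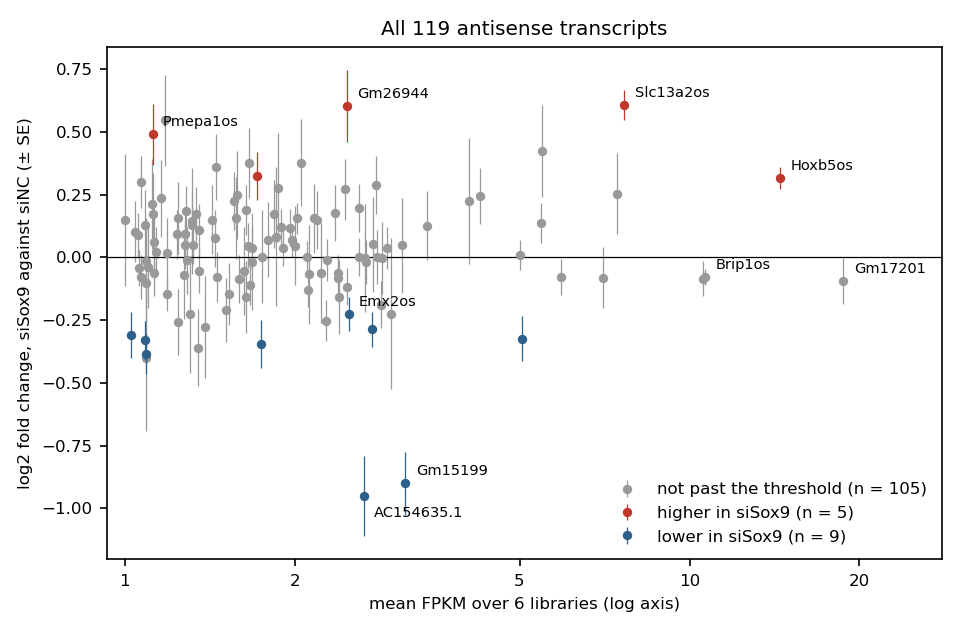
Log2 fold change (siSox9 against siNC, ± SE) of the 119 antisense transcripts against their mean FPKM (log axis), with those that rose in red, those that fell in blue and the others in grey. AC154635.1 and Gm15199 lie lowest, Slc13a2os and Gm26944 highest, and the grey points with the widest error bars lie mostly at low FPKM.

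Slc13a2os was the antisense transcript with the smallest adjusted p. It lies opposite Slc13a2, which encodes the sodium-dicarboxylate cotransporter that takes up citrate and succinate at the apical membrane of the proximal tubule. Slc13a2os was at 9.83, 9.28 and 9.25 FPKM in siSox9 (917, 855 and 802 reads) and at 6.47, 5.50 and 5.64 FPKM in siNC (583, 482 and 508 reads). All 3 siSox9 libraries were above every siNC library, and the mean was 161% of that in siNC (log2 fold change 0.61, SE 0.059, adjusted p = 0.000529). Slc13a2 rose too, from 7.11, 5.58 and 6.47 FPKM to 11.3, 10.5 and 10.05 FPKM (log2 fold change 0.66, adjusted p = 0.0013). The log2 ratio of the antisense transcript to the gene differed by -0.05 between the groups, which the spread covered (exact permutation p = 0.5, two-sided). They overlap tail to tail over 8571 bases, at 17.4% of the exon bases of Slc13a2os. Both have about the same level per length, whereas the median gene of a pair stood 6.05 times above its antisense transcript.

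AC154635.1, annotated in GENCODE M21 under the name Gm47118, lies wholly within Edn1, the gene of the vasoconstrictor peptide endothelin-1, on chromosome 13 (42302298 to 42304991). Its FPKM was 1.17, 1.48 and 1.78 in siSox9 and 4.83, 3.83 and 2.82 in siNC, from 12, 15 and 17 reads and from 48, 37 and 28 reads. The groups did not overlap, although the siNC libraries were spread widely, and 38.5% of the siNC level was left (log2 fold change -0.95, SE 0.160, adjusted p = 0.0048). Edn1 fell from 46.5, 45.3 and 42.5 FPKM to 23.6, 24.2 and 25.9 FPKM (log2 fold change -0.84, adjusted p = 8.8e-05), the largest fall among the overlapping genes. Their log2 ratio differed by -0.11 with an exact permutation p of 0.5, and by -0.44 with an exact permutation p of 0.2 when 0.1 in place of 1 was added to the FPKM. Of the exon bases of AC154635.1, 8.75%, the capitals shown above, lie opposite an Edn1 exon, and the rest lies in its introns. Edn1 stood far higher, at means of 24.6 FPKM in siSox9 and 44.7 FPKM in siNC. How many of the few reads of AC154635.1 came from Edn1 was not tested.

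Among the 7 pairs in which both passed, 6330403L08Rik was the antisense transcript that moved against its gene. Its siSox9 mean was under 1 FPKM, so it is a member through its siNC level alone. It starts inside Pdgfa, which encodes a chain of platelet-derived growth factor, a mitogen of fibroblasts and pericytes, and they overlap head to head over 2315 bases. 6330403L08Rik was at 0.852, 0.920 and 0.766 FPKM in siSox9 (121, 129 and 101 reads) and at 1.38, 1.42 and 1.17 FPKM in siNC (189, 189 and 161 reads). Every siSox9 library was below every siNC library, and 63.9% of the siNC level was left (log2 fold change -0.33, SE 0.077, adjusted p = 0.0169). Pdgfa was at 34.1, 31.9 and 31.9 FPKM in siSox9 against 28.6, 23.9 and 26.0 FPKM in siNC (log2 fold change 0.31, adjusted p = 0.0113). Their log2 ratio differed by -0.64 without overlap of the groups (exact permutation p = 0.1, the smallest possible). As the groups overlapped in neither transcript and the directions were opposite, those of the ratio had to lie apart. Without siSox9 replicate 3 or siNC replicate 2 the fall of 6330403L08Rik had an adjusted p of 0.0521 and 0.0576. The rise of Pdgfa had an adjusted p of 0.0665 with an unmoderated linear model.

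Pmepa1os does not overlap a gene on the other strand. It starts 165 bases from Pmepa1, a gene induced by TGF-β that restrains TGF-β signalling, and is read in the other direction. Pmepa1os was at 1.77, 1.56 and 1.11 FPKM in siSox9 and 0.592, 0.913 and 0.769 FPKM in siNC, from 31, 27 and 18 reads against 10, 15 and 13 reads. All siSox9 values were higher, and the mean was 195% of that in siNC (log2 fold change 0.49, SE 0.122, adjusted p = 0.0218). The siNC mean of Pmepa1os was under 1 FPKM, so it is a member through its siSox9 level alone. The neighbour Pmepa1 rose from 76.2, 63.9 and 67.0 FPKM to 95.1, 90.7 and 87.8 FPKM (log2 fold change 0.40, adjusted p = 0.0045). Their log2 ratio differed by 0.09 (exact permutation p = 0.7), and by 0.47 with the smaller addition of 0.1 (exact permutation p = 0.2). The call of Pmepa1os was lost without siSox9 replicate 1 or 2 or siNC replicate 1 or 3, with adjusted p of 0.0700, 0.0740, 0.0508 and 0.0576.

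**Figure D4:**
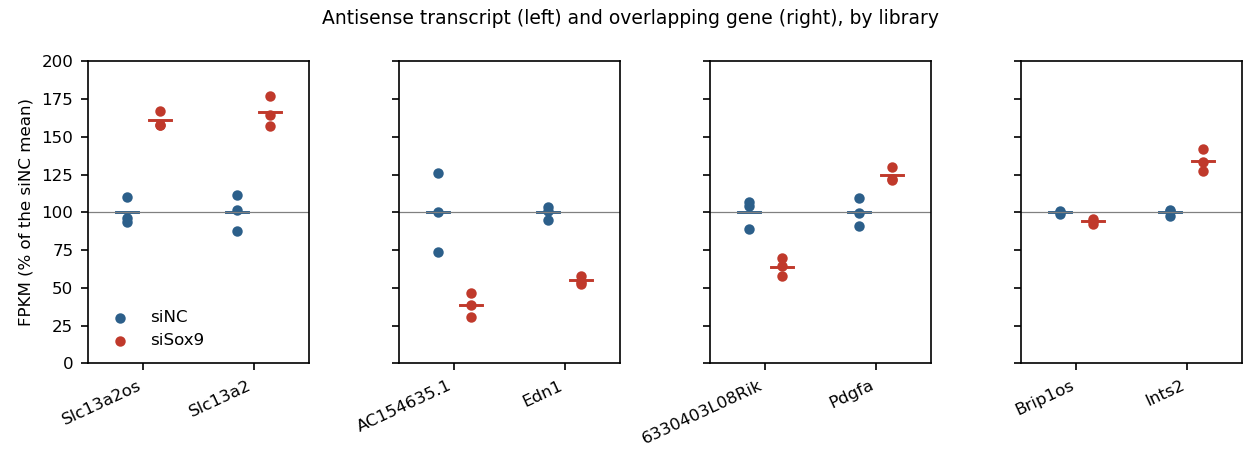
FPKM in each library as a percentage of the siNC mean for 4 antisense transcripts (left in each panel) and the genes they overlap (right), with siNC in blue, siSox9 in red and group means as short bars. Slc13a2os and Slc13a2 are both above 150% and AC154635.1 and Edn1 both below 60% with siSox9, whereas 6330403L08Rik is below and Pdgfa above 100%, and Brip1os stays near 94% while Ints2 is near 134%.

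Hoxb5os and Emx2os lie opposite homeobox genes, which encode transcription factors that pattern the embryo. Hoxb5os was the second most abundant member, at 16.7, 15.2 and 16.5 FPKM in siSox9 (299, 269 and 275 reads) and 13.3, 12.4 and 12.7 FPKM in siNC (229, 208 and 219 reads). The groups were well apart, with 127% of the siNC level in siSox9 (log2 fold change 0.32, SE 0.046, adjusted p = 0.0026). It spans Hoxb6, which rose from 50.8, 47.1 and 47.2 FPKM to 58.2, 53.9 and 54.0 FPKM (log2 fold change 0.19, adjusted p = 0.0176), and Hoxb5, which was at a mean of 7.70 FPKM in siSox9 and 7.46 FPKM in siNC (adjusted p = 0.762). The ratio of Hoxb5os to Hoxb6 was higher in all 3 siSox9 libraries, by 0.13 on the log2 scale (exact permutation p = 0.1). Hoxb5os passed in every alternative, whereas Hoxb6 did not pass without siSox9 replicate 1 or siNC replicate 2 or 3 (adjusted p 0.0545 to 0.0625). Nor did Hoxb6 pass without a filter (adjusted p = 0.0524) or with an unmoderated linear model (adjusted p = 0.0694).

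Gm11536 and Gm15050 also lie in Hox clusters and did not pass. Gm11536, within Hoxb3 and with 7.43 FPKM among the 6 most abundant members, differed by 0.25 on the log2 scale (adjusted p = 0.279). It was at 9.66, 7.29 and 7.43 FPKM in siSox9 and 8.73, 5.73 and 5.72 FPKM in siNC, and replicate 1 was the highest of both groups. Without siNC replicate 1 its adjusted p was 0.0277. Gm11536 also passed with a replicate block, although the labels do not say whether same-numbered libraries were paired. Gm15050, within Hoxa3, had an adjusted p of 0.174. Of the 8 Hoxb genes tested around Hoxb5os, Hoxb4, Hoxb6 and Hoxb7 rose and Hoxb9 fell (log2 fold change -0.13, adjusted p = 0.024). Hoxb2, Hoxb3, Hoxb5 and Hoxb8 did not pass. Over all genes tested 30.4% passed, and 8 genes are too few to be read as a share. In the other clusters 2 of 7 Hoxa genes fell, 0 of 6 Hoxc genes passed and 1 of 4 Hoxd genes rose. Hoxb4 did not pass with an unmoderated linear model (adjusted p = 0.0682). Hoxb9 did not pass after rescaling to one FPKM sum (adjusted p = 0.248) or without siSox9 replicate 2 or 3 or siNC replicate 3 (adjusted p 0.0602 to 0.0667).

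Emx2os lies head to head with Emx2, a homeobox gene needed for kidney and genital tract development, over 264 bases. It was at 2.37, 2.24 and 2.04 FPKM in siSox9 (306, 286 and 245 reads) and 2.85, 2.50 and 2.94 FPKM in siNC (355, 303 and 367 reads). The highest siSox9 library was just below the lowest siNC library, and 80.3% of the siNC level was left (log2 fold change -0.22, adjusted p = 0.0428). Emx2 fell from 18.8, 20.4 and 21.8 FPKM to 16.3, 15.9 and 16.05 FPKM (log2 fold change -0.32, adjusted p = 0.0046), and the ratio of Emx2os to Emx2 differed by 0.09 (exact permutation p = 0.4). The call of Emx2os was lost in 11 of 14 alternatives, with adjusted p up to 0.129, among them the fits that left out siSox9 replicate 1, 2 or 3 or siNC replicate 1 or 3. Among 18 transcripts listed opposite homeobox or kidney transcription factor genes, 15 were under 1 FPKM, with Hoxd3os1 the highest of these at 0.727 FPKM. Of the 3 tested, Hoxb5os and Emx2os passed, beside 30.4% of all genes tested, and 3 are too few to be read as a share. Lhx1os, listed as a long intergenic noncoding RNA and so not a member, differed by 0.03 on the log2 scale (adjusted p = 0.894).

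Gm38155 and AC118202.1 also changed in the direction of their gene. Gm38155 overlaps the 3′ part of Gpatch2, a gene of a G-patch protein, over 6735 bases. It was at 1.65, 2.18 and 2.23 FPKM in siSox9 and 1.57, 1.26 and 1.38 FPKM in siNC, with the lowest siSox9 value close to the highest siNC value (log2 fold change 0.32, adjusted p = 0.0406), and Gpatch2 rose by 0.17 (adjusted p = 0.0172). Their exons share 0% of the bases of Gm38155. AC118202.1 lies head to head with Adgrg6, an adhesion G protein-coupled receptor known from Schwann cell myelination, and 43.97% of its exon bases lie opposite exons of that gene. It was at 2.29, 2.16 and 2.67 FPKM in siSox9 and 2.97, 3.30 and 3.05 FPKM in siNC (log2 fold change -0.29, adjusted p = 0.0202), while Adgrg6 went from 11.7, 11.0 and 11.6 FPKM to 10.1, 9.96 and 9.63 FPKM (log2 fold change -0.19, adjusted p = 0.0094; 0.0811 after rescaling to one FPKM sum). Both calls were lost in 7 of 14 alternatives: that of Gm38155 without siSox9 replicate 2 or 3 or siNC replicate 2 or 3 (adjusted p 0.1003 to 0.1255), and that of AC118202.1 without siSox9 replicate 1 or 2 or siNC replicate 2 or 3 (adjusted p 0.0529 to 0.0673). Gpatch2 did not pass without siSox9 replicate 1 or 2 or siNC replicate 3 (adjusted p 0.0543 to 0.0656).

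Gm26944, AC123738.1, Gm15726 and Gm29237 passed while the gene they overlap did not. Gm26944 lies tail to tail with Pcf11, which encodes a factor of 3′ end cleavage and transcription termination. It was at 3.07, 2.55 and 3.97 FPKM in siSox9 and 2.16, 1.70 and 1.399 FPKM in siNC, or 182% of the siNC level, with each siSox9 library above each siNC library (log2 fold change 0.60, SE 0.143, adjusted p = 0.0185). Pcf11 was at a mean of 6.60 FPKM in siSox9 and 6.58 FPKM in siNC (adjusted p = 0.952), and the log2 ratio rose by 0.60 (exact permutation p = 0.1). AC123738.1 overlaps Zfp131, a zinc finger gene, and was at 0.704, 0.815 and 0.920 FPKM in siSox9 against 1.25, 1.39 and 1.46 FPKM in siNC (log2 fold change -0.39, adjusted p = 0.0103). The siSox9 mean of AC123738.1 was under 1 FPKM, so it is a member through its siNC level alone. Zfp131 had equal means of 10.6 FPKM (adjusted p = 0.986), so that the log2 ratio differed by -0.39 (exact permutation p = 0.1). Gm26944 and AC123738.1 were named for groups that did not overlap. Beside a gene that hardly changed, their ratios mostly repeat that difference and are no separate support. Gm26944 did not pass without siSox9 replicate 1, siNC replicate 2 or siNC replicate 3 (adjusted p 0.0503, 0.0535 and 0.0579), and AC123738.1 had an adjusted p of 0.0518 with voom on its reads.

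Gm15726 and Gm29237 lie within genes of the cytoskeleton, Mid1, a microtubule-associated ubiquitin ligase, and Sptbn1, a spectrin. Gm15726 was at 1.45, 1.55 and 1.23 FPKM in siSox9 and 1.98, 1.79 and 2.45 FPKM in siNC (log2 fold change -0.35, adjusted p = 0.0315). Gm29237 was at 4.69, 4.31 and 4.11 FPKM in siSox9 and 4.85, 5.92 and 6.47 FPKM in siNC (log2 fold change -0.32, adjusted p = 0.0338), with siNC replicate 1 close to the siSox9 libraries. Mid1 differed by -0.07 on the log2 scale (adjusted p = 0.383) and Sptbn1 by -0.09 (adjusted p = 0.0928). A second antisense transcript within Mid1, Gm15247, was at 1.83, 3.71 and 3.01 FPKM in siSox9 and 2.90, 2.98 and 2.097 FPKM in siNC, overlapping ranges (adjusted p = 0.861). Gm42902, head to head with the epoxide hydrolase gene Ephx4, was at 0.822, 0.833 and 0.759 FPKM in siSox9 and 1.28, 1.00 and 1.46 FPKM in siNC (log2 fold change -0.31, adjusted p = 0.0407). The siSox9 mean of Gm42902 was under 1 FPKM, so it is a member through its siNC level alone. Ephx4, at means of 0.480 and 0.576 FPKM, was too low to be tested. The calls of these 3 antisense transcripts were lost in at least 10 alternatives each, with adjusted p up to 0.152 for Gm15726, 0.132 for Gm29237 and 0.147 for Gm42902, including each fit that left out 1 library except those without siNC replicate 2 (Gm15726 and Gm42902) or siNC replicate 1 (Gm29237).

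Gm15199 fell without any gene on the other strand. It was at 1.94, 1.38 and 2.39 FPKM in siSox9 (27, 19 and 31 reads) and 4.24, 4.13 and 4.75 FPKM in siNC (57, 54 and 64 reads). The groups were far apart, and 43.5% of the siNC level was left (log2 fold change -0.90, SE 0.124, adjusted p = 0.0022). It is annotated on chromosome 10 from 42740539 to 42758660 on the minus strand with 542 exon bases in 3 exon blocks. The nearest gene on the plus strand, Sec63, which encodes a protein of the translocation channel of the endoplasmic reticulum, lies 2836 bases away and was at means of 27.6 FPKM in siSox9 and 26.9 FPKM in siNC (adjusted p = 0.397). Of the 119 members, 6 had neither an overlapping gene nor a start of an opposite gene within 2000 bases, and Gm15199 was the one of these that passed.

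Of the most abundant members, Slc13a2os and Hoxb5os passed and the others did not. Gm17201, within Ankrd52, a subunit gene of protein phosphatase 6, had the highest mean at 18.7 FPKM; 59.5% of its exon bases lie opposite Ankrd52 exons. It was at 19.04, 18.5 and 16.6 FPKM in siSox9 and 21.5, 20.1 and 16.7 FPKM in siNC, overlapping ranges (log2 fold change -0.10, adjusted p = 0.467). Ankrd52, by contrast, rose by 0.21 (adjusted p = 0.014). Ankrd52 did not pass with an unmoderated linear model (adjusted p = 0.061) or without siSox9 replicate 1 or 2 or siNC replicate 3 (adjusted p 0.0502 to 0.0555). Brip1os spans Ints2, a gene of the Integrator complex that cleaves nascent RNA, and had the most reads of the members named here, with 1577 to 1785 a library. It was at 10.5, 10.3 and 10.2 FPKM in siSox9 and 11.1, 11.0 and 10.9 FPKM in siNC (log2 fold change -0.08, SE 0.031, adjusted p = 0.0982), while Ints2 rose from 4.85, 4.67 and 4.81 FPKM to 6.76, 6.37 and 6.08 FPKM (log2 fold change 0.36, adjusted p = 0.0015). The ratio of Brip1os to Ints2 was thus lower in all siSox9 libraries by 0.44 on the log2 scale (exact permutation p = 0.1), and that of Gm17201 to Ankrd52 by 0.31 (exact permutation p = 0.1). As the groups overlapped in neither Brip1os nor Ints2 and the directions were opposite, those of their ratio had to lie apart. Brip1os also overlaps Med13, tail to tail over 37411 bases, and Med13 did not pass (log2 fold change 0.014, adjusted p = 0.837). Gm15347, tail to tail with the flippase gene Atp11a, was at means of 10.2 and 10.9 FPKM (adjusted p = 0.396).

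Airn, the imprinted transcript that silences Igf2r on the paternal chromosome, was the 1 member among 7 transcripts of a list drawn up for imprinting. That list also held Zfas1, which nothing in the data used here shows to be imprinted. Airn is the transcript described next. It was at 1.77, 1.46 and 1.46 FPKM in siSox9 and 1.80, 1.57 and 1.93 FPKM in siNC, overlapping ranges (log2 fold change -0.11, adjusted p = 0.333), and Igf2r one of 0.11 (adjusted p = 0.0556). Zfas1, listed as a processed transcript, differed by 0.24 on the log2 scale (adjusted p = 0.0599), and the other 5, Kcnq1ot1 the highest at 0.192 FPKM, were under 1 FPKM.

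At the limit of the choice, Gm15775 (1.00 FPKM), Gm42902 (1.03 FPKM) and 5330439A09Rik (1.04 FPKM) were just inside, and 2900093K20Rik (0.987 FPKM), Gm12223 (0.979 FPKM) and 2900089D17Rik (0.979 FPKM) just outside. Of the 119 members, 104 had a mean of at least 1 FPKM in both groups, 10 in siSox9 alone and 5 in siNC alone. Among the 14 that passed, Pmepa1os, AC123738.1, 6330403L08Rik and Gm42902 had 1 group mean under 1 FPKM, so they are members through the group in which they were higher. 5330439A09Rik differed by 0.10 on the log2 scale (adjusted p = 0.563) beside Asb5, whose rise of 0.67 (adjusted p = 0.000502) was the largest of all overlapping genes tested. Gm15775 varied from 0.299 to 1.77 FPKM within siNC.

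For 103 members the positions gave an overlapping gene on the other strand, protein-coding for 102 of them, and 16 overlapped more than 1. In 94 pairs the gene could be tested, and in 86 of these the antisense transcript had the lower FPKM. Of the 99 overlapping genes, 32 passed (32.3%, against 30.4% of all genes tested), 19 higher and 13 lower, and 53 (53.5%, against 46.3% of all genes tested) had groups that did not overlap; with centring on the library median 24 rose and 10 fell. In 7 pairs both passed, in 4 the antisense transcript alone, in 25 the gene alone and in 58 neither. The 7 were 6 with the same direction (Slc13a2os, Hoxb5os, Gm38155, AC154635.1, AC118202.1 and Emx2os with their genes) and 1 with opposite directions (6330403L08Rik and Pdgfa). Across the 94 pairs the log2 fold changes had a Pearson r of 0.37 and a Spearman rho of 0.23, and 55 pairs had the same sign. These are descriptions across genes that share the 6 libraries and, in part, their reads. The 65 pairs with shared exon bases had an r of 0.41 and a rho of 0.17 and the 29 pairs without had 0.28 and 0.38, and without the 2 members of largest change, Slc13a2os and AC154635.1, r was 0.11.

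**Figure D5:**
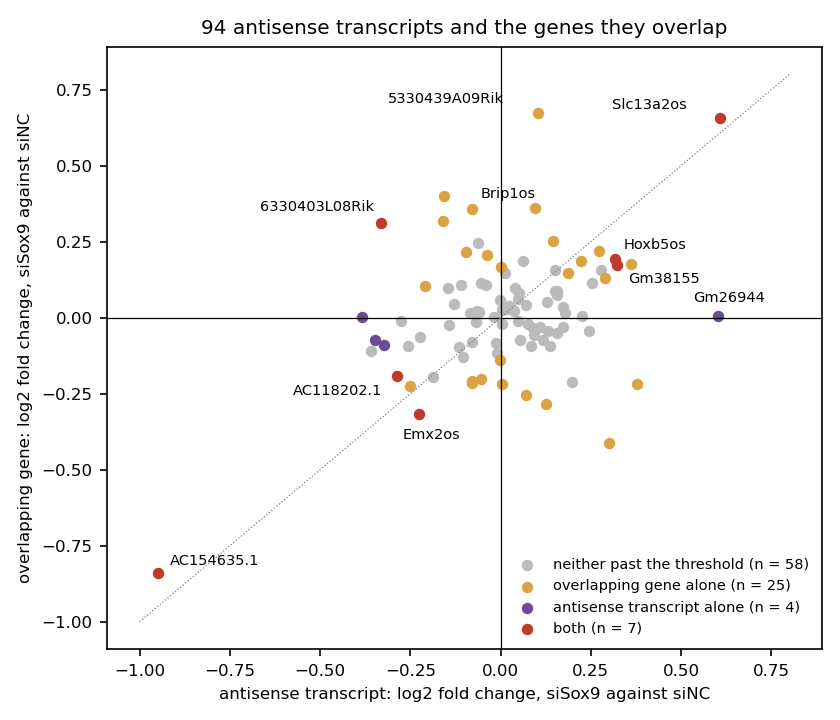
Log2 fold change (siSox9 against siNC) of 94 antisense transcripts (horizontal) and of the gene each overlaps (vertical), coloured by which of them passed the threshold; the dotted line marks equal change. Slc13a2os and AC154635.1 lie close to the line and far from the other pairs, 6330403L08Rik lies in the upper left, and most points spread around 0 with no common slope to be seen.

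By their layout, 52 members lay within the gene they overlap, 27 met it tail to tail, 21 head to head, and 3 spanned it; 10 had a divergent neighbour and 6 neither. Of the head-to-head members 4 of 21 passed (6330403L08Rik, Gm42902, AC118202.1 and Emx2os), beside 30.4% of all genes tested; these 4 fell, and 6330403L08Rik and Gm42902 are members through their siNC level alone. Of the tail-to-tail members 4 of 27 passed (14.8%), of which 3 rose and 1 fell. Of the members within a gene 3 of 52 passed (5.77%), and these (AC154635.1, Gm15726 and Gm29237) fell. Over all genes tested 12.8% were higher and 17.6% lower. The calls in each layout are too few to tie layout to direction, which was not tested. Exon bases opposite exons of the other gene were found in 70 members, 9 of which passed, and in 6 members they were over 50% of the length; 47 members had none, and 5 of these passed. The 14 that passed were all among the 110 of 119 members with at least 50% of their exon bases in no other exon. That was 12.7% of this class, against 11.8% of all members. Some members shared a gene: Sorbs2os and Gm16351 lie opposite Sorbs2, which fell by 0.22 on the log2 scale (adjusted p = 0.002), with adjusted p of 0.971 and 0.141, and Gm12867 and Gm12868 lie opposite the glucose transporter gene Slc2a1, with adjusted p of 0.848 and 0.345.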

How the data were processed

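The authors deposited FPKM values per gene for 6 libraries; submitters' processing notes name Bowtie2 2.2.3, HISAT2 2.1.0, TopHat2 and the build mm9 with no role or order. Positions in the table equalled those of GENCODE M21 (GRCm38) for 93.3% of its genes, and GRCm38 positions are given here. The strand setting and the counting tool are not given in the sources used here. Columns named for an siRNA that is not the control were taken as siSox9, the other siRNA in the labels; 0 columns of other samples were left out.

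limma 3.58.1 (R 4.3.3), with eBayes and its trend option, was run on log2(FPKM + 1) of the 12009 genes whose mean over all 6 libraries reached 1 FPKM. P-values were adjusted with the Benjamini-Hochberg method over all of them, with a threshold of 0.05; adding 1 understates the fold change of low genes. "Passed" means an adjusted p under the threshold. Whole reads were recovered from FPKM with M21 exon lengths (within 0.02 of a whole read) for 27939 genes, 92.4% of those in M21, and 1 read on 1 kb was worth 0.0389 to 0.0418 FPKM. An overlapping gene is one on the other strand whose positions share bases, the protein-coding one with the most shared bases where there were several; a divergent neighbour starts within 2000 bases. Ratios of pairs were compared with an exact two-sided permutation test. The alternatives tried were another addition to FPKM (0.1), no filter, a mean of at least 5 FPKM, rescaling to one sum, median centring, quantile normalization, a replicate block, an unmoderated linear model, voom on reads, only members mostly outside other exons, and leaving out each library; those of the ratios were chosen after seeing the data. Simulated data held 10472 genes for siSox9 against siNC. On them the fit called 97 of 100 genes changed by 1 (log2), 78 of 99 changed by 0.5 and 7 of 10273 unchanged genes. The changed genes were drawn from genes of all types at 1 FPKM or more. The median was 794.8 reads over all genes tested and 36.2 reads for the members. The share that would be called among genes with as few reads as the members was not simulated separately.

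Members and lists were chosen with earlier results of these data known. Named are Sox9, up to 12 rises and 12 falls that passed without overlap of the groups, the 6 most abundant members, 3 genes on each side of the limit of 1 FPKM, members of the lists of imprinted transcripts and of transcripts opposite homeobox or kidney transcription factor genes, and their overlapping genes. Gm15050, Gm15247, the pairs that share Sorbs2 or Slc2a1, and the Hox genes were added after their values were seen. One further transcript is not reported here.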

Additional observations from a re-analysis of the deposited data

How the results depend on the processing

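Of the 14 antisense transcripts that passed, Slc13a2os, Hoxb5os, AC154635.1 and Gm15199 passed in every alternative run on them, AC123738.1 also in each fit without 1 library, and 0 of the 14 changed direction in any alternative. The count of 14 fell to 6 without a filter (2 higher, 4 lower), to 7 with an unmoderated linear model, and to 3 of 12 members at a mean of at least 5 FPKM, where fewer genes were tested; leaving out 1 library gave 7 to 13, with 9, 8 and 8 without siSox9 replicates 1, 2 and 3 and 7 without siNC replicate 3. It was 11 of 112 with voom on reads, and 13 or 14 with the other scalings and the smaller addition to FPKM. The count of 32 overlapping genes fell to 20 with the unmoderated linear model, and leaving out 1 library gave 21 to 32 (21 without siSox9 replicate 1). Sox9 passed in each alternative. Apart from the small tests named, the causes of these shifts were not tested.

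Whether same-numbered libraries were paired is not given in the labels. Over the genes tested, their deviations from the group means correlated at 0.06, -0.05 and 0.01, which cannot show how the cultures were prepared. With the replicate block 14 antisense transcripts passed (7 higher, 7 lower), 9 of them among the 14; Gm38155, Gm15726, Gm29237, Gm42902 and Emx2os did not pass, and Gm11536, higher in siSox9 at each replicate number, passed (adjusted p = 0.0236).

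Near the limit of 1 FPKM, Gm15775 and 5330439A09Rik, which did not pass, ranged in the fits without 1 library from -0.104 (without siNC replicate 1) to 0.442 (without siNC replicate 2) and from -0.00555 (without siSox9 replicate 2) to 0.177 (without siSox9 replicate 3) on the log2 scale. With 0.1 added to FPKM the differences of the log2 ratios of 6330403L08Rik to Pdgfa, AC123738.1 to Zfp131 and Brip1os to Ints2 were -0.91, -0.69 and -0.50, in the same direction.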
